A study of Mus musculus with 2 samples.

Results

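Integrins are surface receptors made of 1 alpha and 1 beta chain that let a leukocyte hold on to vessel walls, matrix and neighbouring cells. The 6 subunit genes that serve most lymphocyte traffic and retention in the gut, Itga4, Itgb7, Itgb1, Itgae, Itgal and Itgb2, were followed across the colon immune cells of 5XFAD and wild-type (WT) mice. They were chosen by name from the 32285 genes of the deposited expression table, all 6 were present, and the rule itself uses no measured value, though it was written with earlier results of these data known. 5XFAD mice carry human transgenes for amyloid precursor protein and presenilin with familial Alzheimer disease mutations, driven by the neuronal Thy1 promoter. The WT mice were littermates, and both groups were 9-month-old females. Leukocytes sorted as live and positive for CD45 were pooled from 3 mice per genotype into 1 library each, so that each genotype is 1 sample, no test between genotypes can be made, and differences between mice cannot be told apart from differences between genotypes. Intervals given here are 95% intervals that cover counting error only.

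The chains combine in pairs. The product of Itga4, integrin alpha 4, joins that of Itgb7 to form the receptor for the gut vessel addressin Madcam1, the classical route by which lymphocytes enter the intestine, or joins that of Itgb1 to form a receptor for Vcam1 and fibronectin. Integrin alpha E from Itgae, also known as CD103, pairs with the same Itgb7 chain and binds E-cadherin on epithelium, which holds lymphocytes in the gut lining. Integrin alpha L from Itgal pairs with the Itgb2 chain to form LFA-1, which binds Icam1 and Icam2 in vessel adhesion and at the synapse between immune cells. Circulating lymphocytes keep these receptors in a low-affinity state until signals through Rap1, talin and kindlin open them.

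The genes lie on different chromosomes in the GRCm38 (mm10) build, with GENCODE annotation. Itga4 (ENSMUSG00000027009) spans bases 79255426 to 79333123 of chromosome 2, Itgb7 (ENSMUSG00000001281) bases 102215995 to 102231944 of chromosome 15 on the minus strand, and Itgb1 (ENSMUSG00000025809) bases 128685654 to 128733200 of chromosome 8. Itgae (ENSMUSG00000005947) spans bases 73090583 to 73147446 of chromosome 11, Itgal (ENSMUSG00000030830) bases 127296260 to 127335138 of chromosome 7, and Itgb2 (ENSMUSG00000000290) bases 77530252 to 77565708 of chromosome 10. Their longest annotated transcripts differ in size, with 9767 bases for Itga4, 5222 for Itgal, 3845 for Itgae, 3815 for Itgb1, 2970 for Itgb2 and 2683 for Itgb7. The 250 bases before the RefSeq start are printed for Itga4, Itgb7 and Itgb1, the alpha 4 chain and both of its beta partners, which are the members with an entry in the RefSeq table and were all lower in B cells of the 5XFAD library. Capitals mark a GC box (GGGCGG) or a RUNX core (TGTGGT, here as its reverse complement ACCACA), searched on both strands together with the ETS core GGAAGT.

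Itga4, chr2:79255176-79255425, plus strand: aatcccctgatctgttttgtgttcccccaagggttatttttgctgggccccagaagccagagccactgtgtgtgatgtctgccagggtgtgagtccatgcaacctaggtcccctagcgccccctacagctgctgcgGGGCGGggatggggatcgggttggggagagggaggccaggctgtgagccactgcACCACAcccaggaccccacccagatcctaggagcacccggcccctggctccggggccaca

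Itgb7, chr15:102231936-102232185, minus strand: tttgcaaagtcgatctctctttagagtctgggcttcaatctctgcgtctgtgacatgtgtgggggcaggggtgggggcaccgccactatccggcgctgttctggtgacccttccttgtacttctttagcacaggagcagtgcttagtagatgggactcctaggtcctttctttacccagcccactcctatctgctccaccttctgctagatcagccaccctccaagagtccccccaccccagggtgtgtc

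Itgb1, chr8:128685404-128685653, plus strand: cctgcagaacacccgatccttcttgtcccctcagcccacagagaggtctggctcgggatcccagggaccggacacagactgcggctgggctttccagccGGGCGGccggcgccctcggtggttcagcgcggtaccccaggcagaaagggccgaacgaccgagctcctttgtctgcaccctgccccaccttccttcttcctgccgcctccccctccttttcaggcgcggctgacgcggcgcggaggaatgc

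The Itga4 window held 1 RUNX core and 1 GC box, the Itgb1 window 1 GC box and the Itgb7 window no match to any of the 3. Among 32536 windows of the same length in the RefSeq table, 13.96% held the RUNX core, 19.8% the ETS core and 33.0% the GC box. The Itgb1 window held 21 CpG dinucleotides at 68% G and C, against 6 CpG at 64% for Itga4 and 5 CpG at 56% for Itgb7, and the median window held 6 at 52.4%. A match is a description of these letters and not a binding site, and no searched motif was in all 3 windows.

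Both libraries held 3443 cells, with 18604847 UMIs (unique molecules counted) in 5XFAD and 17939499 in WT and medians of 5209 and 4938 UMIs per cell. No 5XFAD cell had 2500 genes or more, against 106 WT cells, and 3 cell barcodes occurred in both libraries. Cells carried deposited cluster numbers from 0 to 16, read here through marker genes. Clusters 0 to 5 were B cell-like and are pooled as 1 class of 2364 5XFAD and 2538 WT cells. Clusters 6 (led by Jchain, Igha and Cd80) and 7 (led by Egr1, Egr2, Egr3 and Myc) carried B cell markers too but are called by number. Cluster 8 was regulatory T cell-like, cluster 9 ILC2-like (group 2 innate lymphoid cells), cluster 10 T cell-like, cluster 12 NK or ILC1-like, cluster 13 gamma delta T cell-like and cluster 16 ILC3-like, the last with 25 5XFAD and 17 WT cells. Cluster 11 (led by Cd7, Klra7 and Klrd1, with T cell markers), cluster 14 (led by Lef1, Igfbp4 and Cd8b1) and cluster 15 (macrophage, epithelial and endothelial markers together) are called by number. None of the 6 integrin genes was among the 10 leading genes of any cluster. Summed UMIs of the 8 B cell markers in clusters 8 to 16 reached, as a share of the B cell-like level, 0.594% to 6.82% for 5XFAD, and 1.41% to 13.4% for WT, and were higher in WT in each of the 9 clusters. Levels are CPM, the UMIs of a gene per 1000000 UMIs of the class. The mix of cells in cluster 15 differed between the libraries. Its summed neutrophil markers had 0 CPM in 5XFAD and 1191 in WT, and its macrophage or monocyte markers 6634 and 10683. Its epithelial markers had 1017 CPM in 5XFAD and 439 in WT, and its stromal or endothelial markers 1710 and 661. The 3′ method reads 1 tag per molecule whatever its length, so levels are not divided by length, and capture can still differ from gene to gene.

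Itga4, the alpha chain that pairs with either Itgb7 or Itgb1, was the most abundant of the 6 genes, at 176 CPM in all 5XFAD cells and 248 in all WT cells. Its level was highest in cluster 6, the Jchain and Igha cells, with 356 CPM (320 to 394) in 5XFAD and 498 CPM (448 to 552) in WT. Cluster 11 had 302 CPM in 5XFAD and 374 CPM in WT, the T cell-like cluster 10 had 254 and 361 CPM and the regulatory T cell-like cluster 8 had 295 and 299 CPM. The intervals of clusters 8, 10 and 11 overlapped within each library, so their ranks are not separated. Cluster 6 overlapped clusters 8 and 11 in 5XFAD but neither of them in WT. In WT the small cluster 16 had 410 CPM (299 to 548), which overlapped cluster 6. The gamma delta T cell-like cluster 13 stood at the other end: 4 Itga4 UMIs in 76 5XFAD cells and 6 in 49 WT cells, or 8.67 CPM (2.36 to 22.2) and 20.3 CPM (7.45 to 44.2). The B cell RNA in that cluster would by itself carry 1.12 CPM of Itga4 in 5XFAD and 7.87 CPM in WT, if it came with the Itga4 content of B cell-like cells. Cluster 14 was also low, with 52.1 CPM in 5XFAD and 90.8 CPM in WT.

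Within the B cell-like class Itga4 varied between clusters. The 5XFAD library had 209 CPM in cluster 0, 84.7 in cluster 1, 218 in cluster 2, 137 in cluster 3, 202 in cluster 4 and 132 in cluster 5, against WT levels of 262, 174, 288, 203, 308 and 194 CPM in the same order. Cluster 1, whose leading genes include the nucleolar gene Nop16 and the polyamine gene Srm, had the lowest value of the 6 in both libraries, and in WT its interval overlapped those of clusters 3 and 5.

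Itgb7, the gut-directed beta chain, followed another order. It was highest in the ILC2-like cluster 9, at 290 CPM (253 to 332) in 5XFAD and 259 (222 to 300) in WT, and in the gamma delta T cell-like cluster 13, at 275 CPM (229 to 328) and 288 CPM (230 to 356). The T cell-like cluster 10 had 230 CPM in 5XFAD and 234 in WT, the NK or ILC1-like cluster 12 had 206 and 204, and the regulatory T cell-like cluster 8 had 189 and 213. B cell-like cells had 47.4 CPM in 5XFAD and 63.4 CPM in WT, and clusters 6 and 7 lay at 30.5 to 44.6 CPM in both libraries. Cluster 13 therefore combined one of the highest Itgb7 levels with almost no Itga4 and, as given further on, no Itgae UMI. Cluster 6 combined an Itga4 level among the highest with low Itgb7.

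Itgb1, the broadly used beta chain, peaked in the NK or ILC1-like cluster 12, at 254 CPM (214 to 300) in 5XFAD and 284 (238 to 335) in WT. The mixed cluster 15 had 210 CPM in 5XFAD and 208 in WT, and cluster 10 had 116 and 181. In B cell-like cells it had 15.4 CPM in 5XFAD and 19.4 CPM in WT, and 6.94% of 5XFAD and 8.12% of WT cells held a UMI.

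Itgae was the most restricted of the 6. The regulatory T cell-like cluster 8 held 42 UMIs in 5XFAD and 49 in WT, or 71.6 CPM (51.6 to 96.8) and 87.8 CPM (64.9 to 116), with a UMI in 21.8% of 5XFAD and 25.4% of WT cells. Cluster 11, whose leading genes include killer-cell lectin receptors, had 54.4 CPM in 5XFAD and 49.3 CPM in WT, and cluster 14 had 24.8 and 20.2 CPM. The B cell-like class held 6 UMIs in 2364 5XFAD cells and 3 in 2538 WT cells, which is 0.212% and 0.118% of cells and gives the background level against which the T cell values can be read, at class median depths of 5086.5 and 4783.5 UMIs. No Itgae UMI was found in cluster 13 in either library, which allows a share of up to 3.95% of 76 5XFAD cells and 6.12% of 49 WT cells to hold one. Clusters 2, 4, 5, 6 and 16 had none in either library either. Cluster 15 held 8 Itgae UMIs in 3 of 32 5XFAD cells and none in 37 WT cells.

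Itgal, the LFA-1 alpha chain, was highest in the gamma delta T cell-like, NK or ILC1-like and T cell-like clusters. Cluster 13 had 217 CPM (176 to 264) in 5XFAD and 284 CPM (227 to 352) in WT, cluster 12 had 188 and 243 CPM, and cluster 10 had 146 and 191 CPM. B cell-like cells had 28.1 CPM in 5XFAD and 38.6 CPM in WT. Its partner chain Itgb2 was flatter across clusters, with the highest values in cluster 10 at 100.3 CPM (78.3 to 127) in 5XFAD and 118 (92.1 to 148) in WT, and 36.8 and 34.2 CPM in B cell-like cells. The innate lymphoid clusters 9 and 16 departed from this, with 13 Itgb2 UMIs in 5XFAD and 8 in WT in cluster 9 (17.4 and 11.8 CPM), and 1 and 0 UMIs in cluster 16. Itgal was present in the same clusters, at 88.3 CPM in 5XFAD and 153 in WT in cluster 9. In cluster 16 it had 4 UMIs in 5XFAD and 17 in WT.

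**Figure D1:**
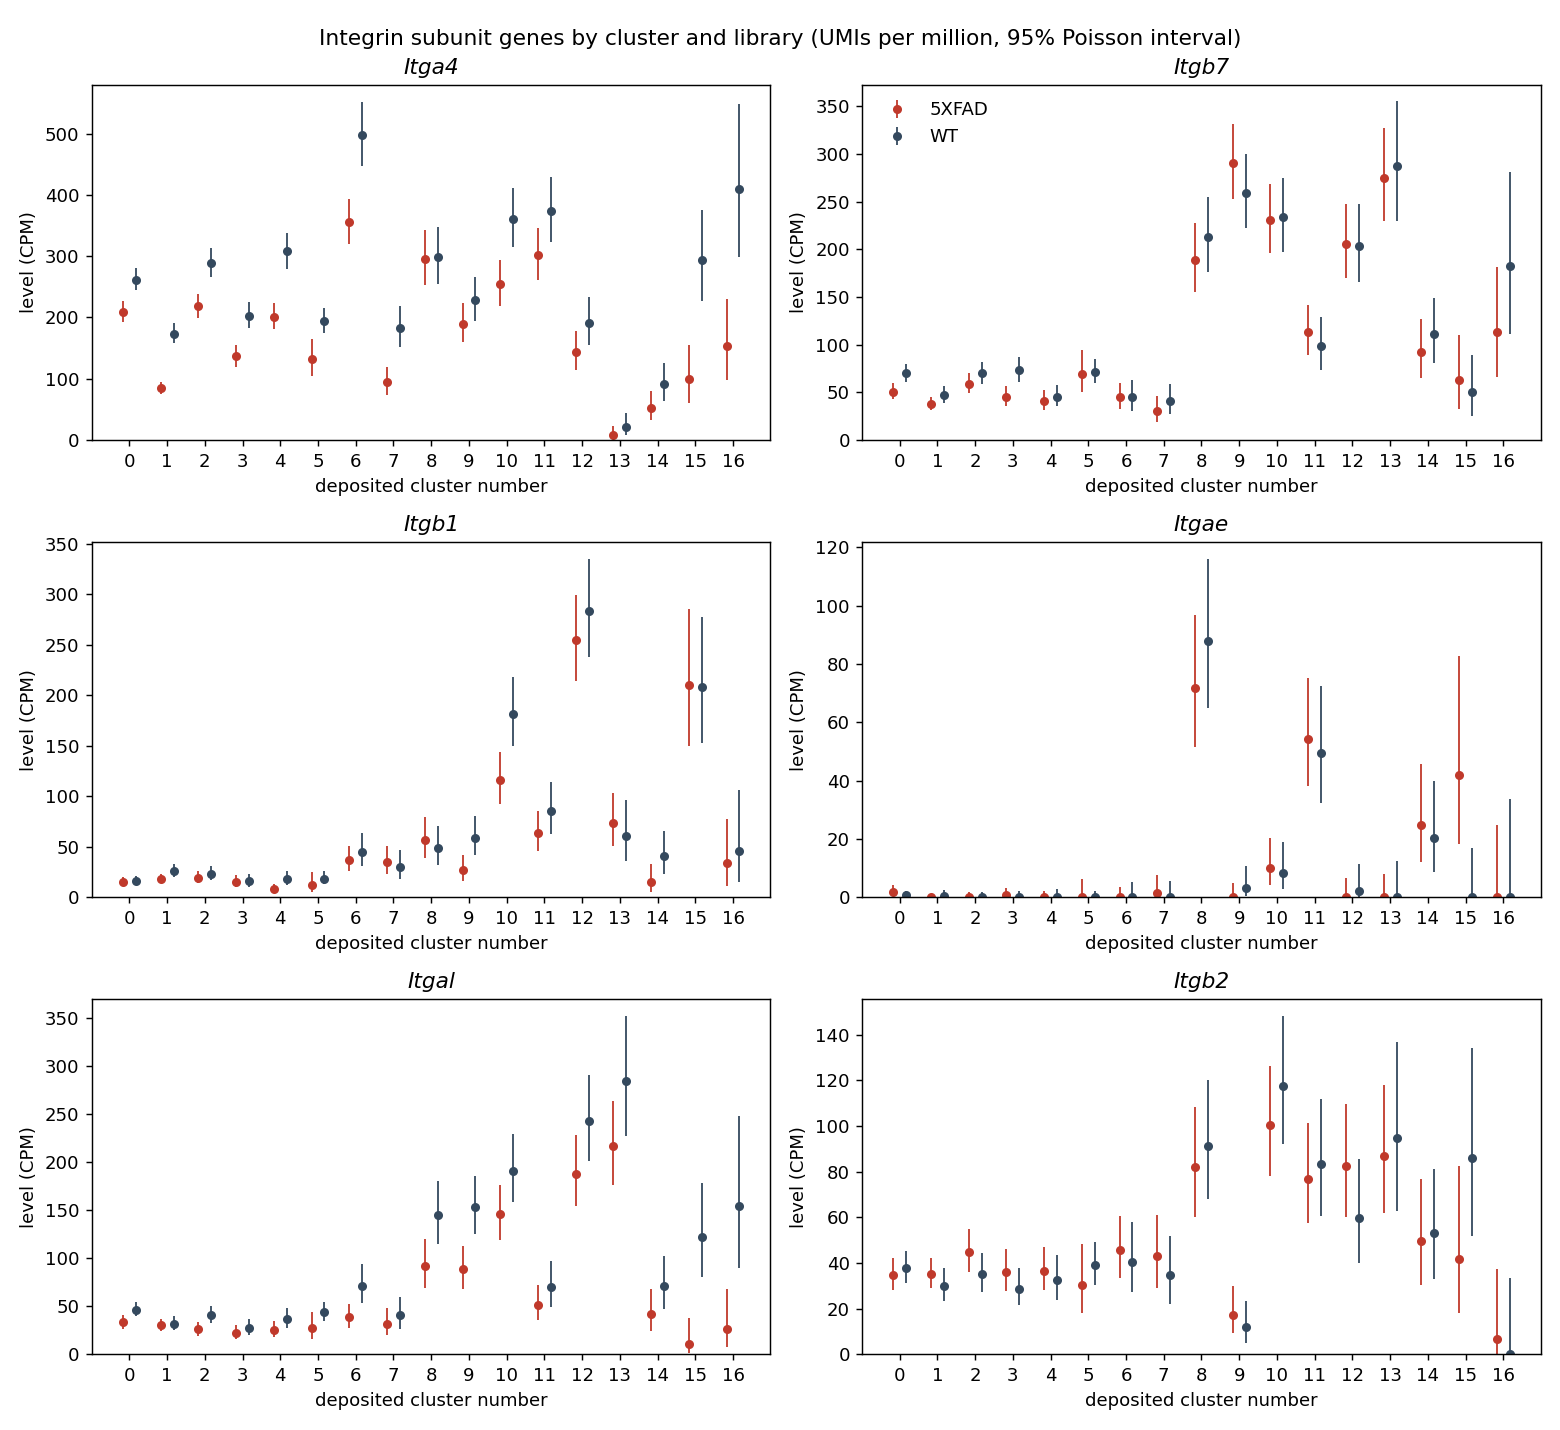
Level of each of the 6 integrin genes (y axis, CPM) in each deposited cluster (x axis) for the 5XFAD library (red, left) and the WT library (blue, right). Points are the single pooled library and bars the 95% Poisson interval; Itga4 is near 0 in cluster 13, Itgae is nearly confined to clusters 8, 11, 14 and 15, with 8.17 to 9.89 CPM in cluster 10, and Itgb2 is low in clusters 9 and 16.

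Because 1 chain can choose between partners, the balance of the 2 beta chains within a library was compared. This value depends neither on depth nor on scaling, but it does depend on how well each gene is captured. Of all Itgb7 and Itgb1 UMIs, Itgb7 made up 75.4% (72.3 to 78.4) of the 5XFAD and 76.6% (73.9 to 79.1) of the WT molecules in the B cell-like class. The gut-directed chain was thus the larger part of the UMIs of these 2 genes, with other beta chains not counted. It was about even in cluster 6, at 54.8% in 5XFAD and 50% in WT, and under 50% in cluster 12, at 44.7% and 41.8%. Cluster 9 had 91.6% (87.3 to 94.8) in 5XFAD, the highest value in that library, and 81.5% (75.6 to 86.4) in WT, where clusters 3, 8 and 13 had 81.5% to 82.5%. It was 1 of 17 clusters in which the intervals of both libraries did not overlap, and the share was lower in 5XFAD in 6 of the 17. The cluster 9 difference lay in Itgb1, with 20 UMIs in 5XFAD and 40 in WT, while Itgb7 had 217 and 176.

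For LFA-1, the alpha chain took a smaller share in 5XFAD. Itgal made up 43.3% (39.8 to 46.8) of Itgal and Itgb2 UMIs in 5XFAD B cell-like cells and 53.0% (49.8 to 56.3) in WT B cell-like cells. Its share was lower in 5XFAD in 17 of 17 clusters, although the intervals were apart in 1 of them only. Itgal has the longer transcript of the pair, and the relation of these ratios to transcript length is given further on. Its share was highest in cluster 9, with 83.5% in 5XFAD and 92.9% in WT, in cluster 12, with 69.5% and 80.3%, and in cluster 13, with 71.4% and 75%, and in cluster 16 it gave 4 of the 5 UMIs for 5XFAD, against all 17 UMIs for WT.

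**Figure D2:**
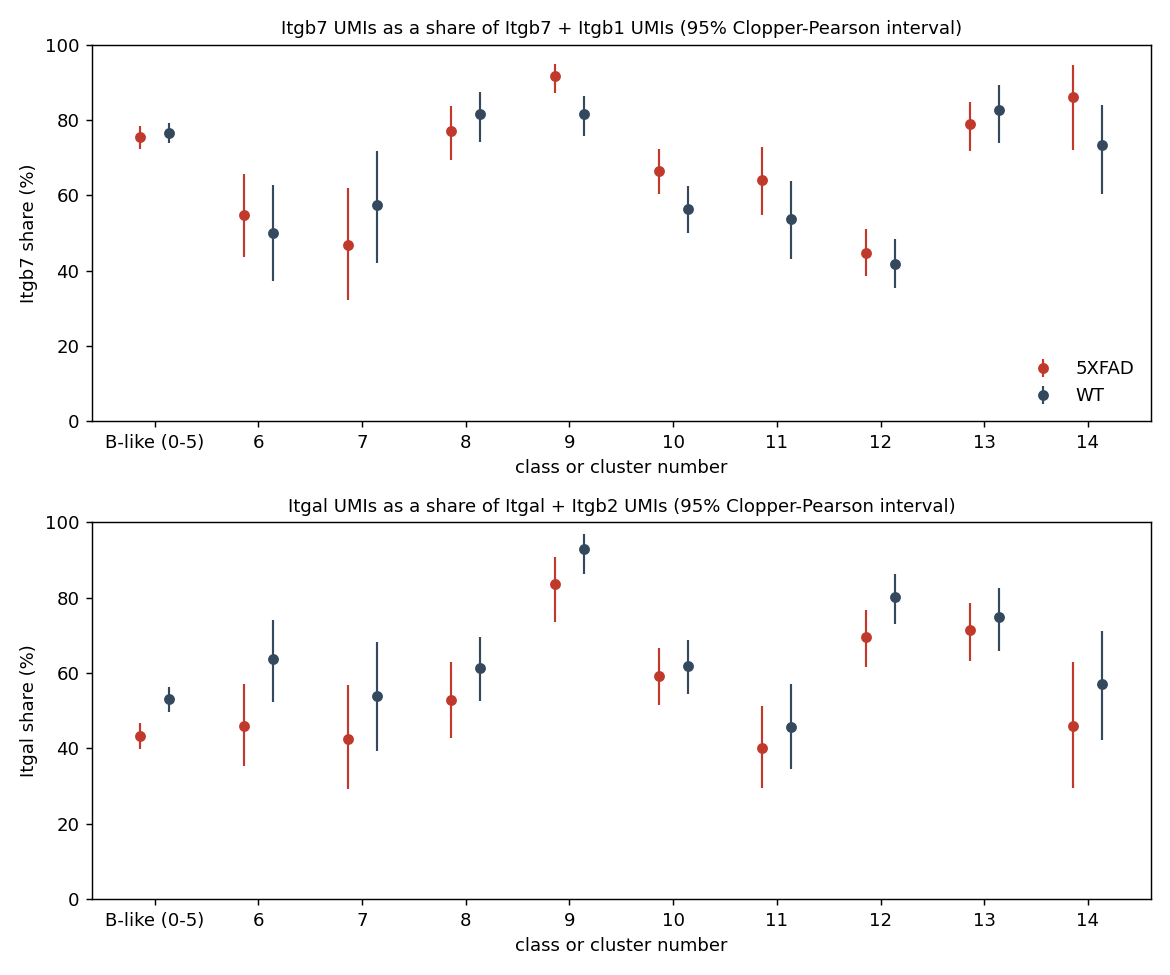
Share of Itgb7 in Itgb7 plus Itgb1 UMIs (upper panel) and of Itgal in Itgal plus Itgb2 UMIs (lower panel), in percent, by class for 5XFAD (red, left) and WT (blue, right). Bars are 95% Clopper-Pearson intervals; the Itgb7 share is near 76% in B cell-like cells and under 50% in cluster 12, and the Itgal share lies lower in 5XFAD in each class.

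In single cells the beta chain genes were detected at similar rates in cells with and without the alpha chain RNA. After thinning each cell to 3000 UMIs, which leaves out 60 5XFAD and 124 WT cells, Itgb7 was found in 12.8% of Itga4-positive and 12.7% of Itga4-negative B cell-like cells in 5XFAD. The WT values were 17.6% and 16.9%. In cluster 8, Itgb7 was found in 39.9% (19.5 to 63.2) of Itgae-positive and 36.9% of Itgae-negative 5XFAD cells, and in 49.2% (26.4 to 72.2) and 45.0% of WT cells. Among 46 class and library combinations with at least 20 expected alpha-positive cells, over the pairs Itga4 with Itgb7, Itga4 with Itgb1, Itgae with Itgb7 and Itgal with Itgb2, the intervals of alpha-positive and alpha-negative cells overlapped in each. The partner gene was the more frequent in alpha-positive cells in 13 of 13 combinations for Itgal with Itgb2, in 12 of 16 for Itga4 with Itgb7 and in 5 of 16 for Itga4 with Itgb1. At the few UMIs per cell available for each gene, a pairing of moderate size was not detectable.

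Between genotypes, Itga4, Itgal, Itgb7 and Itgb1 were lower in 5XFAD B cell-like cells, and Itgb2 and the scarce Itgae were not. In B cell-like cells Itga4 had 1993 UMIs in 5XFAD and 2994 in WT, 161 CPM (154 to 168) against 236 CPM (228 to 245), a log2 ratio of -0.55 (-0.64 to -0.47). The share of cells with an Itga4 UMI was 44.2% in 5XFAD and 56.2% in WT, or 32.0% and 43.2% after thinning. Cells with 3 or more Itga4 UMIs made up 9.26% in 5XFAD and 15.8% in WT, and cells with none 55.8% and 43.8%, so the whole distribution lay lower. Itgb7 had a log2 ratio of -0.42 (-0.58 to -0.27) from 587 and 804 UMIs, Itgal -0.46 (-0.66 to -0.26) from 348 and 489, and Itgb1 -0.33 (-0.61 to -0.05) from 191 and 246. Itgb2 had 456 UMIs in 5XFAD and 433 in WT, a log2 ratio of 0.11 (-0.08 to 0.30). Itgae, with 6 and 3 UMIs, gave a log2 ratio of 1.03 with an interval of -1.19 to 3.66.

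Of the 5 members with at least 50 UMIs in B cell-like cells, 1 was at or below a log2 ratio of -0.5 (Itga4) and 0 were at or above 0.5. Among all 9681 genes with that many UMIs, 19.8% were at or below -0.5 and 6.95% at or above 0.5, so the count of 1 in 5 is near the background. The median of the 5 members was -0.42, against -0.12 over all genes. Scaling by the median of all genes in place of the class total therefore raises each B cell ratio by 0.12, and Itga4 is then at -0.43 and no longer past -0.5.

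Transcript length moved with these ratios. Over 9598 genes in B cell-like cells the Spearman correlation of transcript length with the log2 ratio was -0.42, a description across genes, which are not independent. When all genes were split into 5 groups by transcript length, the median log2 ratio was 0.16 in the group with the shortest transcripts and -0.37 in the group with the longest, which holds Itga4 and Itgal. Relative to the median of its own group, Itga4 was at -0.18, Itgal at -0.08, Itgb1 at -0.20 and Itgb2 at 0.24. Itgb7, among the shorter transcripts, stayed at -0.42. The longest group spans 5206 to 123179 bases, and Itgal, at 5222, lies at its lower edge. The next shorter group had a median of -0.21, and Itgal's interval (-0.66 to -0.26) holds -0.37 but not -0.21. What the length relation comes from was not tested.

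**Figure D3:**
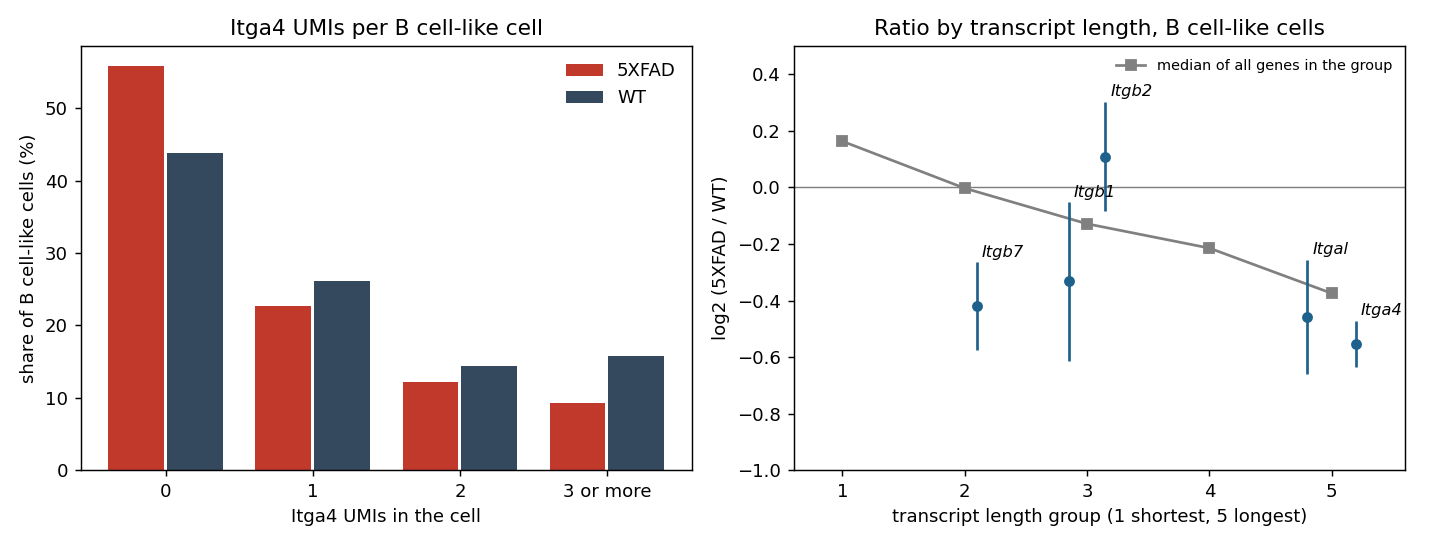
Left, share of B cell-like cells (percent) with 0, 1, 2 and 3 or more Itga4 UMIs in 5XFAD (red, left) and WT (blue, right). Right, log2 ratio of 5XFAD over WT (y axis) by transcript length group (x axis, 5 groups from shortest to longest). Squares are the median of all genes in B cell-like cells and circles, with 95% counting intervals, the 5 members with at least 50 UMIs. Itgal lies at the lower edge of the longest group, and its interval holds that group's median of -0.37. The intervals of Itga4 and Itgb7 lie below the medians of their own groups.

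Itga4 and Itgal were also lower in 5XFAD outside the B cell-like class. Itga4 was lower in 5XFAD in 17 of 17 clusters, with the interval below 0 in 12, of which 11 and 6 are among clusters 6 to 16, but the value of -0.02 in cluster 8 took the other sign with median-of-ratios scaling (0.0020), in cells under 2500 genes (0.011) and in thinned cells (0.10). Itgal was lower in 17 of 17, with the interval below 0 in 7, of which 11 and 5 are among clusters 6 to 16. By class totals both were lower in each of 8 classes (the B cell-like class and clusters 6 to 12), as were 13.7% of the 2044 genes with enough UMIs in all 8. Relative to the median of their length group in the same class, both were below 0 in 7 of 8 classes. No share over all genes was taken for this count, so it cannot be set against a background. Several of the values were near 0, with -0.01 for Itga4 in cluster 9, and for Itgal -0.08 in B cell-like cells and -0.09 in clusters 10 and 12. The range over the 8 classes was -0.54 to 0.24 for Itga4 and -0.63 to 0.08 for Itgal, which lies at the lower edge of the longest group. Itgb7 was lower in 13 of 17 clusters with 2 intervals below 0, Itgb1 in 13 of 17 with 4, and Itgb2 in 8 of 16 with 0.

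The size of the Itga4 difference varied with the cell group. Cluster 1 had 84.7 CPM in 5XFAD and 174 CPM in WT, a log2 ratio of -1.04 (-1.26 to -0.82), and cluster 7, the Egr and Myc cells, had 94.2 and 184 CPM, -0.96 (-1.41 to -0.52). The regulatory T cell-like cluster 8 lay at 295 CPM in 5XFAD and 299 in WT, -0.02 (-0.34 to 0.30), and its interval did not reach the B cell value of -0.55. Cluster 16 had 153 CPM in 5XFAD and 410 CPM in WT, from 23 and 45 UMIs. The B cell RNA in clusters 8 to 14 would carry 1.12 to 2.56 CPM of Itga4 in 5XFAD and at least 4.32 CPM in WT, and in WT was largest in cluster 14, which held 90.9 CPM.

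Itgal differences also varied with the cell group. The ILC2-like cluster 9 had 88.3 CPM in 5XFAD and 153 CPM in WT, a log2 ratio of -0.79 (-1.26 to -0.33). Cluster 6 had 38.8 and 71.1 CPM, -0.88 (-1.51 to -0.25), and cluster 8 had 92.1 and 145 CPM, -0.66 (-1.18 to -0.14). Within the B cell-like class the log2 ratio lay between -0.70 (-1.57 to 0.09) in cluster 5 and -0.07 (-0.51 to 0.37) in cluster 1. It was -0.39 (-0.79 to 0.0005) in cluster 10, -0.37 (-0.76 to 0.02) in cluster 12 and -0.39 (-0.82 to 0.04) in cluster 13, each with an interval that held 0. Clusters 15 and 16 had 2 and 4 Itgal UMIs in 5XFAD against 27 and 17 in WT, on 32 and 25 5XFAD cells and 37 and 17 WT cells. In cluster 15 the mix of cells also differed between the libraries, as given above.

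The beta chains differed by cell group. Itgb7 was lower in 5XFAD B cell-like cells, while in clusters 8 to 14 its log2 ratio was -0.17 (-0.56 to 0.21) in cluster 8, 0.16 (-0.13 to 0.46) in cluster 9, -0.02 (-0.35 to 0.31) in cluster 10, 0.20 (-0.33 to 0.74) in cluster 11, 0.02 (-0.38 to 0.42) in cluster 12, -0.06 (-0.47 to 0.35) in cluster 13 and -0.28 (-0.95 to 0.39) in cluster 14. In cluster 16 it was -0.68 (-1.71 to 0.32), and of these the interval of cluster 9 alone did not overlap that of the B cell-like class. Within the B cell-like class the Itgb7 ratio ran from -0.69 (-1.11 to -0.27) in cluster 3 to -0.04 (-0.58 to 0.48) in cluster 5. Among the other clusters with B cell markers, it was -0.002 (-0.68 to 0.70) in cluster 6 and -0.42 (-1.30 to 0.45) in cluster 7. Itgb1 was lower in cluster 10, with 115.8 CPM in 5XFAD and 181 CPM in WT, -0.65 (-1.08 to -0.22), and in cluster 9, with 26.8 and 58.8 CPM, -1.14 (-1.99 to -0.33). Itgb2 stayed between -0.23 and 0.47 in the pooled B cell-like class and in those of clusters 6 to 16 with at least 50 UMIs. Each of these intervals held 0, as did that of cluster 5 taken singly, at -0.36 (-1.19 to 0.41). Itgae had log2 ratios of -0.29 (-0.92 to 0.33) in cluster 8 and 0.14 (-0.63 to 0.93) in cluster 11.

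**Figure D4:**
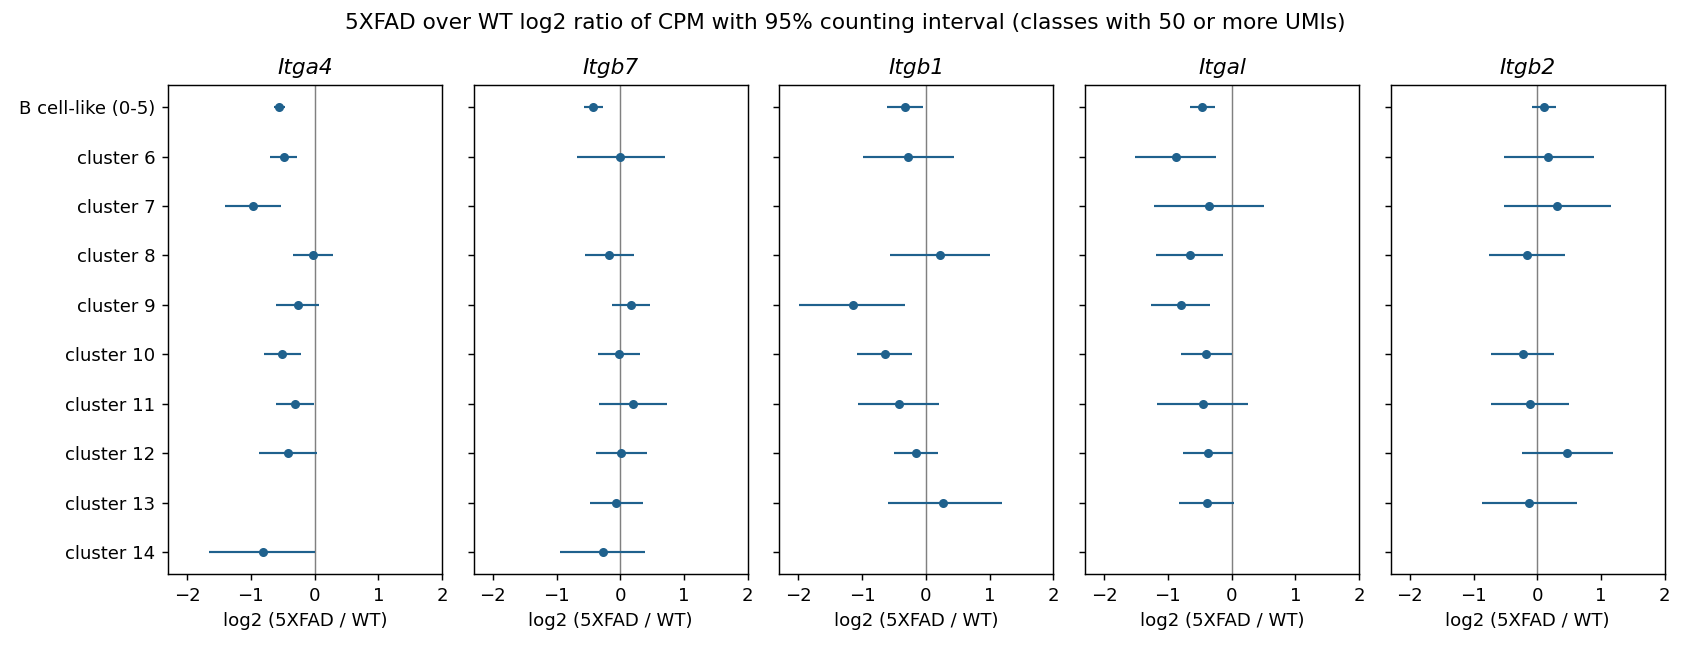
Log2 ratio of 5XFAD over WT (x axis) with its 95% counting interval for 5 integrin genes, in the B cell-like class and clusters 6 to 14 (y axis), shown where a class had at least 50 UMIs of the gene. Itga4 and Itgal lie left of 0 in each class shown, Itga4 in cluster 8 by only 0.02 with a sign that turned under other settings, Itgb7 lies below 0 with its interval in B cell-like cells, and Itgb2 intervals all include 0.

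The other integrin subunit genes, listed for comparison, were 20, of which 3 had at least 50 UMIs in B cell-like cells, with 1 of the 3 at or below -0.5 and a median of -0.03. That gene was Itga6, the laminin receptor alpha chain, with 11.2 CPM in 5XFAD and 19.9 CPM in WT, -0.83 (-1.13 to -0.52). Itgav, the alpha V chain, was the mark of cluster 8 among them, at 344 CPM in 5XFAD and 360 in WT, together with Itgb8 at 37.5 and 50.2 CPM, the chain with which alpha V activates latent TGF-beta. Itgb3, another alpha V partner, had 45.1 CPM in 5XFAD and 42.7 CPM in WT in B cell-like cells, and 51.7 against 30.2 CPM in cluster 0. Itga1, a collagen receptor chain of tissue-resident lymphocytes, was highest in clusters 12 and 11, with 116 CPM in 5XFAD and 115 CPM in WT in cluster 12 and 96.6 and 119.5 CPM in cluster 11. Of the other beta 2 partners, Itgax had 39.4 CPM in 5XFAD and 80.2 in WT in cluster 12, where Itgb2 had 82.4 and 59.6 CPM. Itgam had 62.9 CPM in 5XFAD and 127 in WT in cluster 15, where Itgb2 had 42.0 and 86.0 CPM. Neutrophil and macrophage markers were also higher in WT in cluster 15, so these values do not compare like cells. Itga2 and Itga3 stayed at or below 12.5 CPM in every cluster of both libraries.

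Genes that control integrin activation, in either direction, were counted as a list of 32, of which 27 had at least 50 UMIs in B cell-like cells. Of these 4 were higher and 23 lower in 5XFAD, 1 at or above 0.5 and 13 at or below -0.5, with a median of -0.43. Over all 9681 genes 5996 were lower, 6.95% lay at or above 0.5 and 19.8% at or below -0.5, with a median of -0.12. Neither these counts nor these medians were centred on transcript length. The higher ones were Cyth1, an Arf exchange factor of the cytohesin family, at 426 CPM in 5XFAD and 267 in WT (0.67), its binding partner Cytip at 882 and 662 CPM (0.41), Rap1b, a Rap1 GTPase, at 370 and 335 CPM (0.14), and Ilk, integrin-linked kinase, at 22.6 and 21.1 CPM with an interval of -0.15 to 0.34. The 4 lower genes whose intervals lay farthest from 0 were Sipa1, a GTPase-activating protein that switches Rap1 off, at 58.1 CPM in 5XFAD and 126 in WT (-1.11), Rasgrp1, an exchange factor for Ras, at 12.2 and 28.8 CPM (-1.24), Rassf5, the Rap1 effector also known as RAPL, at 23.9 and 44.8 CPM (-0.91), and Rhoh, a GTPase of haematopoietic cells, at 166 and 284 CPM (-0.78). Relative to genes of like transcript length Sipa1 was at -0.98, Rasgrp1 at -0.87, Rassf5 at -0.78 and Rhoh at -0.56, and the higher genes Cyth1 at 0.80, Cytip at 0.79, Rap1b at 0.15 and Ilk at 0.10. The list thus held lower values both for genes that open integrins and for Sipa1, which opposes them.

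**Figure D5:**
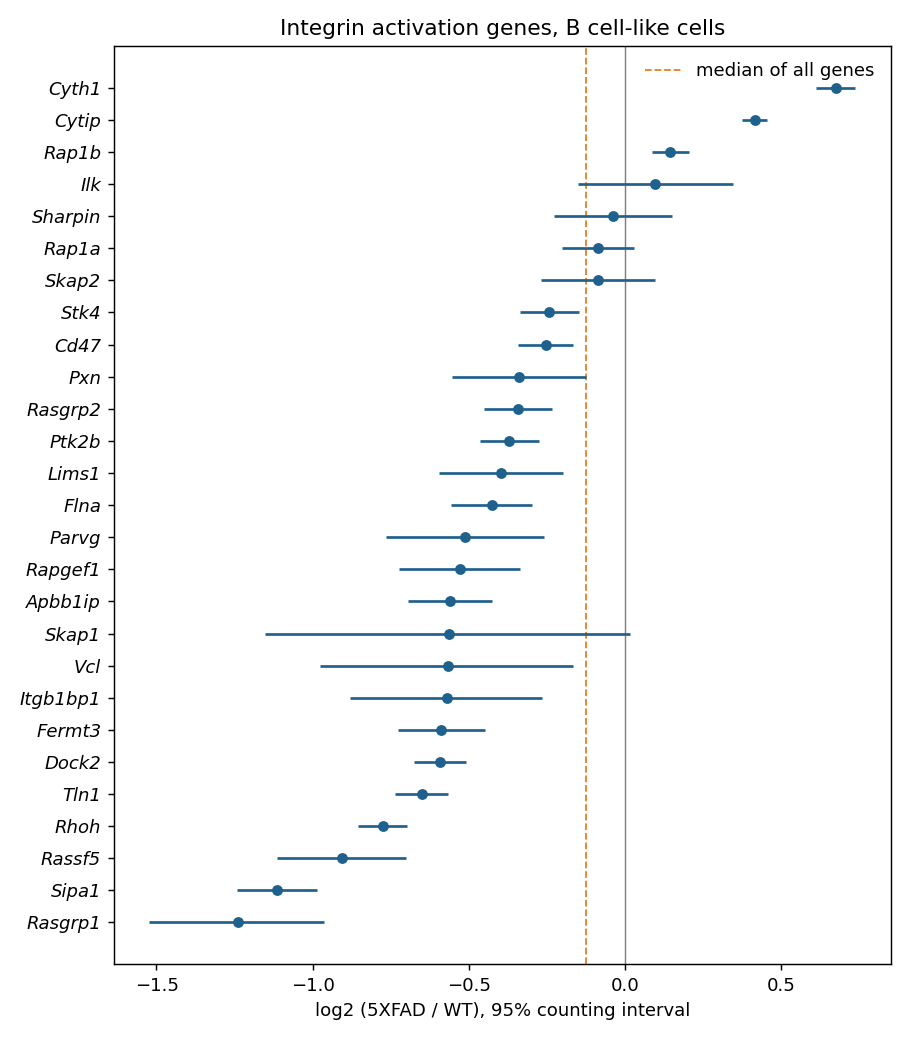
Log2 ratio of 5XFAD over WT (x axis) with 95% counting interval for the 27 integrin activation genes (y axis) with at least 50 UMIs in B cell-like cells. The solid line marks 0 and the dashed line the median of all genes, -0.12; 4 genes lie right of 0 and 23 left of it.

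Across the 14 clusters with at least 50 cells in each library, the genes whose levels tracked each member best were named by the lower of the Pearson correlations in the 5XFAD and WT libraries, on log2(CPM + 1) values over 5958 genes. Itgb7 was closest to Tnfsf11, which encodes RANKL, and to the chemokine receptor gene Cxcr6, at 0.96 for both. Itgb1 was closest to the granzyme inhibitor gene Serpinb9 (0.93) and Lrrfip1 (0.92), and Itgal to Tmem176b and Tspo (both 0.95). Itgae was closest to Stat5b (0.90) and Stat5a (0.87), and Itgb2 to Gimap4 (0.87) and Rnf138 (0.86). Itga4 had no close match, with 0.75 for Snrpb2 and Dpy30, general RNA splicing and chromatin genes. The clusters share their libraries and most are either B cells or T and innate lymphocytes, so a high correlation can rest on that split alone.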

How the data were processed

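Live CD45+ colon leukocytes were profiled by 3′ single-cell RNA-seq in 1 pooled library per genotype, per the labels' protocols; Cell Ranger 6.0.1 and mm10 were used, per the submitters' processing notes, and what filters came next was not stated in these sources. The authors deposited, per cell, natural log values of the form ln(1 + counts per 10000 UMIs), a second natural log table of SCT-corrected counts, and cell metadata: the counts of UMIs and genes per cell, the mitochondrial percent and cluster numbers. The library named AD was taken as 5XFAD, being the only one not named WT. Counts were recovered by inverting the log; 100% of 11758401 nonzero values were whole within 1e-06, and totals matched in 6886 of 6886 cells. UMIs were summed per class and library and scaled to the class total (CPM). Intervals (95%) are exact Poisson for levels, Clopper-Pearson for shares and conditional binomial for ratios; they cover counting error only. With 1 library per genotype no test was made. A gene is listed at 50 or more UMIs over both libraries and called at a log2 ratio of 0.5 or more either way; a count of 0 allows up to 3 (per class and library). Thinned shares are expectations over all draws of 3000 UMIs from a cell. Doublets were not called: whether the authors removed them is not stated. The genes, lists and tests were chosen with earlier results of these data known. Named activation genes are the 4 higher and 4 lower with the interval bound nearest no change farthest out. Promoters are from RefSeq (GRCm38.p6), with an entry for 3 of the 6 genes; transcript lengths are the longest in GENCODE. Ratio intervals were checked on simulated Poisson counts only, the model they are built for, so the check does not cover spread between cells or mice. Python 3.11.15, numpy 2.4.6, pandas 2.3.3, scipy 1.17.1 and matplotlib 3.10.9 were used.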

Additional observations from a re-analysis of the deposited data

How the results depend on the processing

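In B cell-like cells the log2 ratios of the 6 genes kept their direction without cluster 5, in cells under 2500 genes, without the cell with the most UMIs of the gene, in thinned cells, with equal cluster weights, with SCT counts, after median-of-ratios scaling and after centring on genes of like transcript length. Itga4 moved beyond its interval to -0.43 with median-of-ratios scaling and to -0.18 with length centring, and Itgal to -0.083 with length centring. The median of the 5 members moved to -0.30 and that of the activation genes to -0.30 with median-of-ratios scaling. In unthinned B cell-like cells, the share of Itga4-positive cells with Itgb7 was 21.2% in 5XFAD and 27.5% in WT, that with Itgb1 6.61% and 8.76%, and that of Itgal-positive cells with Itgb2 21.2% and 16.9%; more UMIs per cell raise each by construction. Levels by cluster and the beta chain shares stayed within their intervals. Alternatives for clusters 6 to 14 and for the named activation genes were chosen after seeing the data. So were length centring in clusters 6 to 12 and the use of expected in place of drawn thinned values. Length centring in clusters 6 to 12 left aside, there were 264 such values for single genes. Of these 14 moved beyond their interval, all for activation genes. The other sign was taken by 10, in 6 member ratios within 0.14 of 0 (Itga4 in cluster 8, Itgae in cluster 11 and Itgb7 in clusters 6, 10, 12 and 13). Length centring turned the sign of Itga4 in cluster 8 (0.24), Itgal in cluster 7 (from -0.35 to 0.08) and Itgb7 in cluster 12 (-0.04). It also moved Itga4 beyond its interval in cluster 6 (-0.24) and cluster 10 (-0.20). The median of the other integrin subunits, -0.03, was 0.06 with no minimum of UMIs and 0.10 with median-of-ratios scaling. No paired analysis was possible because each genotype has 1 library. With 1 library per genotype, depth limits Itgae outside clusters 8 and 11, and every gene in clusters 15 and 16.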

Other observations

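The ligands of these integrins were also measured in the sorted cells. Icam1, the main ligand of LFA-1, was highest in the NK or ILC1-like cluster 12, at 473 CPM in 5XFAD and 393 in WT, next to a high Itgal level in the same cluster. In B cell-like cells Icam1 had 11.7 CPM in 5XFAD and 14.9 CPM in WT, and Icam2, a further LFA-1 ligand, 21.1 and 24.0 CPM. Cdh1, the E-cadherin gene whose product binds integrin alpha E, was found in cluster 11, with 27 UMIs in 5XFAD and 20 in WT (40.8 and 37.9 CPM), 1 of the clusters that also held Itgae. Vcam1 and Fn1, the ligands of the alpha 4 and beta 1 receptor, were mostly in the mixed cluster 15, with 19 and 15 UMIs in 5XFAD and 18 and 34 in WT.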
